A study of Mus musculus with 2 samples.

Results

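The genes of mouse chromosome 18, which carries the endoderm transcription factor gene Gata6 and its antisense neighbour Gata6-AS, were described by their distance from the Gata6 start and by strand. All 580 rows of the deposited expression table that are placed on this chromosome were taken, out of 26127 rows in all, and no difference between the libraries entered the choice. The samples were extraembryonic endoderm stem (XEN) cells, a stem cell type that stands for the primitive endoderm of the blastocyst, of the female ICR line PS10. They were transfected, with a lipid reagent, with a modified oligonucleotide directed at Gata6-AS or with a control one, and their RNA was sequenced. The sample titles call these reagents siRNA and the protocol calls them locked nucleic acid (LNA), and the latter name is used here. There was 1 library per group, so differences compare these 2 libraries, have no replicate check and carry no p-value. Levels are in RPKM, read numbers scaled to transcript length and library depth, and differences are those of log2(RPKM + 1), Gata6-AS LNA minus control LNA, a scale that understates the change of low genes.

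GATA6 is a zinc finger factor that drives primitive endoderm identity. Antisense and other long noncoding RNAs can act on genes beside their own site of transcription, in cis, or on genes elsewhere.

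In mm9 coordinates Gata6 lies on the plus strand of chromosome 18 from 11052508 to 11085633, and Gata6-AS, named 1010001N08Rik in the table and Gata6os by RefSeq, on the minus strand from 11049085 to 11052565. The table's spans share 58 bp, with the start sites head to head. Reads in that stretch cannot be assigned to either gene, since no source used here says whether counting was strand-specific. Distances run from the Gata6 start to each gene's own start site, which is the start coordinate of a plus-strand gene and the end coordinate of a minus-strand gene.

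Both libraries carried endoderm markers. All 10 XEN markers examined lay above 1 RPKM in both libraries, and their summed level was 4960 RPKM for control LNA and 3800 RPKM for Gata6-AS LNA. Most of that sum came from Sparc, Lama1 and Lamb1 (2104, 1125 and 937 RPKM for control LNA). Sox7, Sox17 and Gata4, endoderm factors on other chromosomes, were among the 8 that were lower. Dab2 was higher (31.0 and 43.6 RPKM) and Foxa2 hardly differed (35.1 and 35.9 RPKM). Of 5 embryonic stem cell markers, only Nanog had a mean of at least 1 RPKM, at 4.61 and 5.07 RPKM. Pou5f1 stood at 0.0556 and 0.0541 RPKM and Zfp42 at 0.0107 and 0.0045 RPKM, while Sox2 and Esrrb were listed at 0. The 5 trophoblast and 5 fibroblast markers had a mean below 1 RPKM each. RPKM steps of short genes correspond to depths of 1.04e+08 reads (control) and 1.23e+08 reads (Gata6-AS LNA), so that a value of 0 over 1 kb of transcript allows up to 0.0290 and 0.0244 RPKM.

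On chromosome 18, 262 of 580 genes averaged 1 RPKM or more across the libraries and are called measured from here on. Katnal2 (mean 1.04 RPKM, difference 0.25) lay just inside this limit and Zfp608 (mean 0.989 RPKM, difference -0.052) just outside it. Of the rest, 127 genes were at 0 in both libraries. In the control library the measured genes ran from 0.868 to 1031 RPKM with a median of 8.38 RPKM, and in the Gata6-AS LNA library from 0.765 to 1053 RPKM with a median of 8.72 RPKM. Its share of all summed RPKM was 2.23% for control LNA and 2.22% for Gata6-AS LNA. The ribosomal protein gene Rpl17 was its highest gene in both, followed by another ribosomal protein gene, Rps14, at 506 and 512.5 RPKM (difference 0.018, below 0 once the libraries are rescaled). Ribosomal protein genes have many processed copies, so the level of either is uncertain where reads map to several places.

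The median difference over the 262 genes was 0.0034, which turns to -0.045 when the median of all genes is set to 0, with 127 genes below 0 and 135 above. Among the 10869 measured genes of all chromosomes the median was 0.048, and 42.0% lay below 0, against 48.5% on chromosome 18. The median of chromosome 18 was the fourth lowest of 20 chromosomes, after those of chromosomes 3 (-0.016), 12 (-0.010) and 13 (0.00077). The typical size of a difference, taken without its sign, was 0.17 on chromosome 18 and 0.17 over all genes. The chromosome's median thus lay below that of all genes, as did those of others that carry neither gene.

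On the log2(RPKM + 1) scale, only 1 measured gene of the chromosome, Gm5506, differed by at least 2-fold (0.382%). Lipg, at 206% of control in RPKM, was under 2-fold on that scale. Over all chromosomes 0.782% of genes did so, 0.331% higher and 0.451% lower. At 1.5-fold on the same scale there were 4 higher and 8 lower genes, or 4.58% of the chromosome against 5.37% over all genes. In the direction of lower values alone the background was 1.95%, and in that of higher values 3.42%. Of all 262 measured genes, 30 had their start site within 5 Mb of the Gata6 start, 25 at 5 to 20 Mb and 207 over 20 Mb away. Of the 8 lower genes, 3 lay within 5 Mb: Gata6-AS, and Kif5b and Gm17036, whose spans overlap. A further 1 lay at 5 to 20 Mb (Fhod3) and 4 lay farther away (Lars, Nars, Zbtb7c and Spry4). The 4 higher genes on the log2(RPKM + 1) scale, Gm5506, Lipg, Tmco6 and Impa2, lay over 20 Mb away, as did most measured genes. Genes with a smaller difference on that scale but over 150% of control in RPKM included Pik3c3 (153%), at 19.4 Mb.

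**Figure D1:**
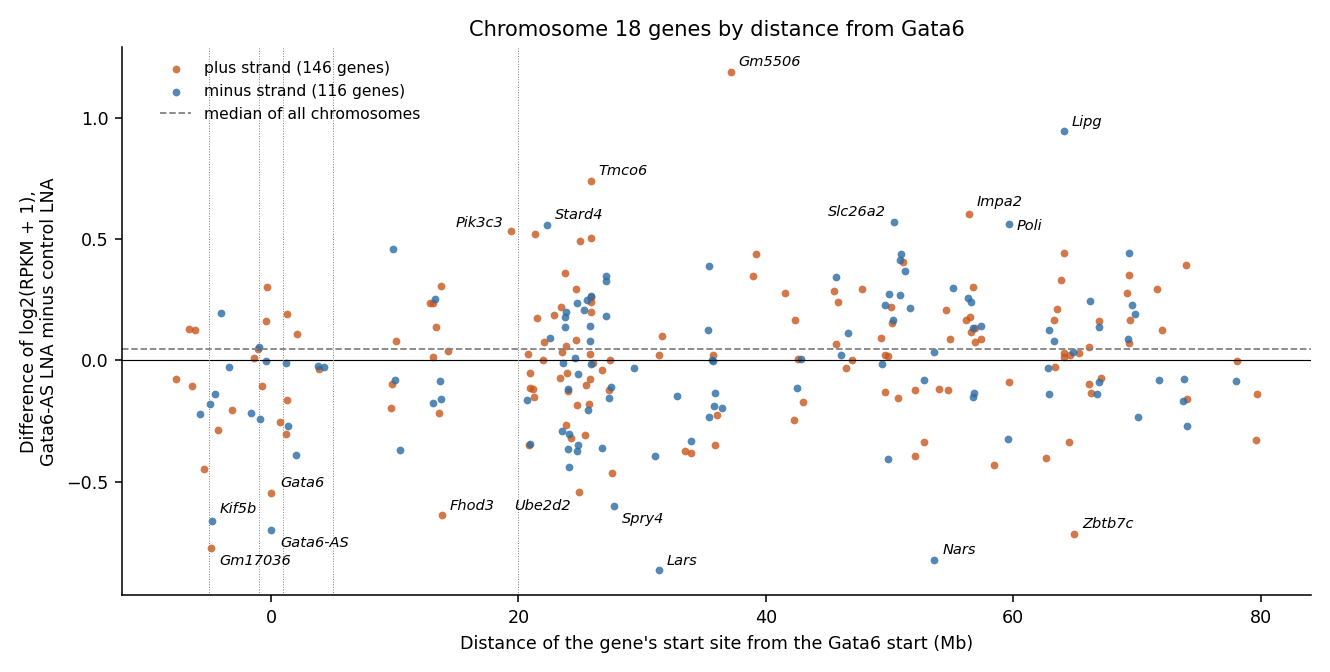
Difference of log2(RPKM + 1), Gata6-AS LNA minus control LNA, for the 262 measured genes of chromosome 18 (vertical axis) against the distance of the start site from the Gata6 start in Mb (horizontal axis), coloured by strand; dotted lines mark 1, 5 and 20 Mb and the dashed line the median of all chromosomes, 0.048. Within 5 Mb the points lie from -0.77 to 0.30, while genes over 20 Mb away span -0.87 to 1.19.

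Gata6-AS and Gata6 were both lower in the Gata6-AS LNA library, and they were the 2 lowest genes within 1 Mb. Gata6-AS stood at 10.1 RPKM with the control LNA and at 5.83 RPKM with the Gata6-AS LNA, which is 57.8% of control (exact 95% interval 50.5% to 66.1%). Gata6 stood at 81.9 and 55.7 RPKM, or 68.0% of control (66.8% to 69.3%). These Clopper-Pearson intervals rest on the smallest read numbers from which both RPKM values can arise, and cover counting error only. The differences were -0.70 and -0.55, the fifth and ninth lowest of the chromosome.

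Within 1 Mb of the Gata6 start the table held 13 genes, of which 8 were measured, and 6 of those 8 lay below 0. Their median was -0.17 with Gata6 and Gata6-AS and -0.053 without them, when 4 of 6 lay below 0. On the lower-coordinate side, 5 genes were measured and no shared direction appeared. Mib1, a ubiquitin ligase that acts on Notch ligands, is the nearest of them at 0.327 Mb and stood at 8.02 and 10.1 RPKM, or 126% of control (123% to 130%). Snrpd1, a core protein of the spliceosomal Sm ring, at 0.435 Mb, stood at 79.6 and 89.2 RPKM (112%, 109% to 116%).

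Both of these near genes were thus higher in the library where Gata6 was lower. Esco1, which acetylates cohesin, was at 5.06 RPKM in both libraries (interval 92.5% to 108% of control). Greb1l, at 0.727 Mb, stood at 5.41 and 4.95 RPKM (91.7%). Rock1, a kinase that acts on the actomyosin cytoskeleton, at 0.871 Mb, stood at 10.6 and 8.79 RPKM (83.2%, 80.4% to 86.1%).

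On the higher-coordinate side the nearest measured gene was Rbbp8, at 0.739 Mb, whose product CtIP starts DNA end resection. It stood at 7.77 and 6.36 RPKM (81.9%, 77.9% to 86.1%). Beyond Gata6 and Gata6-AS it was the only measured gene of this side within 1 Mb. The 5 unmeasured genes within 1 Mb were Abhd3 (0.753 and 0.953 RPKM), Cables1 (0.0341 and 0.0431 RPKM), the pseudogene Gm10349 (0.0112 and 0.00940 RPKM), and 4930563E18Rik and Gm6277, both at 0 in either library.

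**Figure D2:**
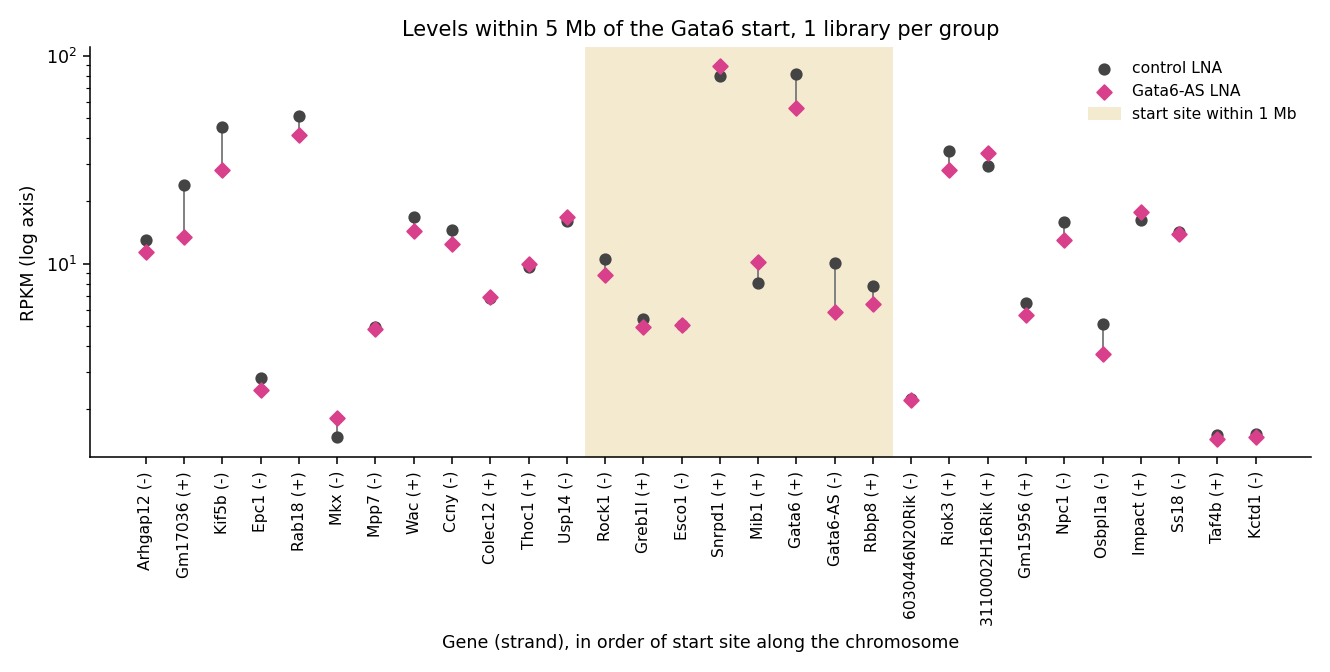
RPKM in the control LNA library (circles) and the Gata6-AS LNA library (diamonds), on a log axis, for the 30 measured genes with a start site within 5 Mb of the Gata6 start, in order along the chromosome with their strand; 1 library per group. The shaded genes lie within 1 Mb, where Snrpd1 and Mib1 are higher, Esco1 sits at 5.06 RPKM in both and the other 5 are lower with the Gata6-AS LNA.

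From 1 to 5 Mb away, 22 of 44 genes were measured, 16 of them below 0 and 6 above, with a median of -0.089. The lowest were a pair on opposite strands at 4.8 Mb, Kif5b and Gm17036. Kif5b, the heavy chain of conventional kinesin, stood at 45.5 and 28.3 RPKM (62.3% of control, 61.1% to 63.6%). Gm17036, a gene model that lies wholly within the span of Kif5b on the other strand, stood at 23.8 and 13.5 RPKM (56.7%). Since counting may not have used strand, these values need not come from separate transcripts.

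The next lowest differed less. Osbpl1a, an oxysterol-binding protein of late endosomes, stood at 5.09 and 3.65 RPKM (71.7%, 68.5% to 75.1%) at 2.05 Mb. Rab18, a GTPase of lipid droplets and the endoplasmic reticulum, stood at 51.3 and 41.8 RPKM (81.5%), and the lysosomal cholesterol transporter gene Npc1 at 15.9 and 13.005 RPKM (81.8%). Riok3, an atypical kinase, stood at 34.9 and 28.1 RPKM (80.4%).

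Several genes in this range hardly differed. The chromatin remodelling subunit gene Ss18 stood at 98.4% of control (95.2% to 102%), Colec12 at 101% (95.2% to 106%) and Mpp7 at 97.7% (92.6% to 103%). The highest relative to control were Mkx, a homeobox gene near the detection filter (1.46 and 1.81 RPKM, 125%), 3110002H16Rik (29.6 and 33.9 RPKM, 115%) and Impact, which encodes an inhibitor of the amino acid sensor kinase GCN2 (16.2 and 17.6 RPKM, 108%). Usp14 and Thoc1, whose ends overlap by 53 bp at 1.01 and 1.09 Mb, were both at 104%.

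From 5 to 20 Mb away, 25 of 65 genes were measured, with 13 below 0, 12 above and a median of -0.078. The extremes were Fhod3, a formin that assembles actin filaments, at 10.3 and 6.27 RPKM (60.7%, 58.3% to 63.2%), and Pik3c3, the class III phosphatidylinositol 3-kinase of autophagy, at 5.72 and 8.72 RPKM (153%, 143% to 163%). Zeb1, a repressor of epithelial genes, stood at 3.29 and 2.14 RPKM (65.1%). Of the serum carrier gene Ttr, a marker of visceral endoderm, 2.42 and 2.20 RPKM were measured (90.8%, 77.5% to 106%), an interval that includes 100%. B4galt6, a lactosylceramide synthase beside it, stood at 6.30 and 9.04 RPKM (144%).

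Over 20 Mb away, 207 of 458 genes were measured, with 92 below 0, 115 above and a median of 0.022 (-0.026 with the median of all genes set to 0). Across the 3 limits, the genes just inside and just outside were Rock1 (0.871 Mb) and Usp14 (1.01 Mb), Arhgap12 (4.92 Mb) and Zeb1 (5.46 Mb), and Pik3c3 (19.4 Mb) and Slc25a46 (20.7 Mb). The medians of the 4 distance ranges thus ran from -0.17 through -0.089 and -0.078 to 0.022, and each lay below the 0.048 of all genes. Without Gata6 and Gata6-AS the median within 1 Mb was -0.053. It then lay above those from 1 to 5 Mb and from 5 to 20 Mb, so the order by distance did not hold. Across the 262 genes, Spearman's rank correlation between distance and difference was 0.18, and 0.17 without Gata6 and Gata6-AS. Between distance and the size of the difference without its sign it was -0.0070. Among the 28 genes within 5 Mb other than Gata6 and Gata6-AS, the rank correlation of distance with difference was -0.38, with the opposite sign to that over the chromosome. These are descriptions across genes that share the same libraries, and genes are not independent replicates.

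Taken as 1 region, the 30 measured genes within 5 Mb had 22 members below 0 (73.3%, against 42.0% of all genes) and a median of -0.12. Without Gata6 and Gata6-AS, 20 of 28 lay below 0 and the median was -0.071. Both sides had more genes below 0 than above, with 11 of 17 genes below 0 at lower coordinates and 9 of 11 at higher coordinates. In windows of 10 Mb counted from the Gata6 start, the window from 30 to 40 Mb had the lowest median (-0.14 over 22 genes, with Lars the lowest and Gm5506 the highest), followed by that from 0 to 10 Mb (-0.13 over 16 genes) and the last window before Gata6 (-0.10 over 23 genes). The 16 genes from 0 to 10 Mb include Gata6 and Gata6-AS, and no window median without them is given. In the window from 70 to 80 Mb, 10 of 13 genes lay below 0. The most positive windows were 50 to 60 Mb (0.14 over 40 genes) and 60 to 70 Mb (0.073 over 35 genes). With 1 library per group, whether the stretch around Gata6 differs from these others was not tested.

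**Figure D3:**
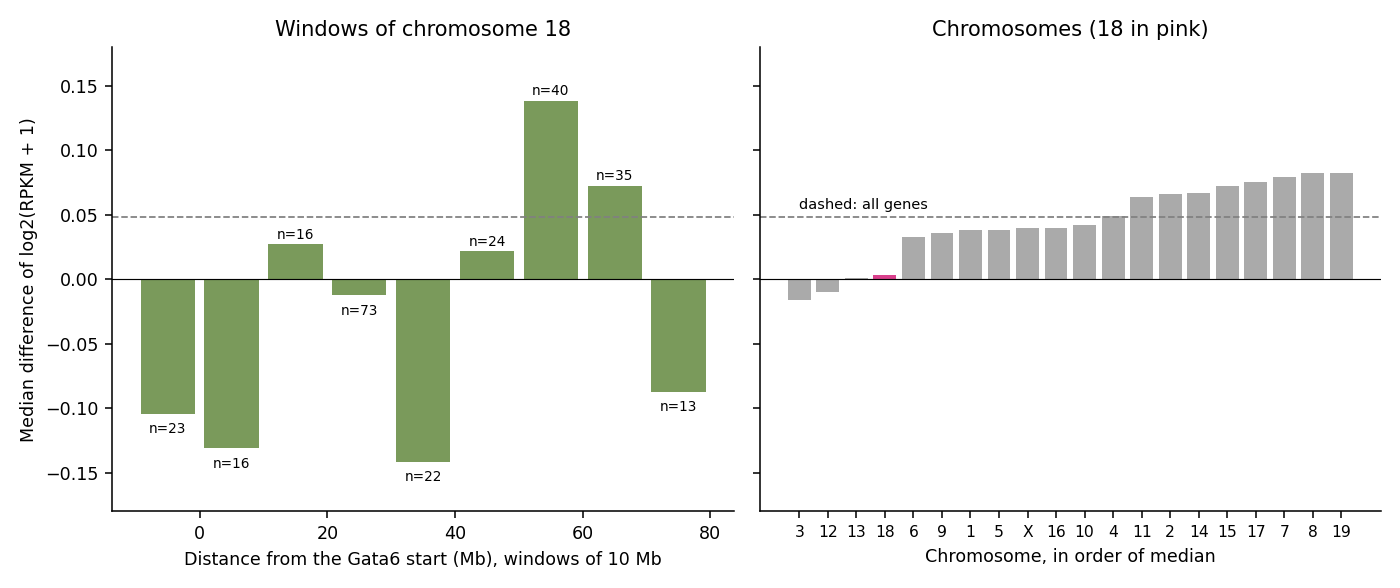
Median difference of log2(RPKM + 1), Gata6-AS LNA minus control LNA, of measured genes in windows of 10 Mb by distance from the Gata6 start (left, with the number of genes) and for each chromosome in order of its median (right, chromosome 18 in pink); the dashed line is the median of all genes. The last window before Gata6 is at -0.10, and that from 0 to 10 Mb, which includes Gata6 and Gata6-AS, is at -0.13. The window from 30 to 40 Mb is at -0.14, and chromosome 18 as a whole is at 0.0034.

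Gata6 and Gata6-AS are transcribed in opposite directions, so the genes were also split by strand. The 146 measured plus-strand genes had a median of 0.022 and the 116 minus-strand genes one of -0.019. With the median of all genes set to 0 the plus-strand value becomes -0.027. Below 0 were 43.2% of plus-strand and 55.2% of minus-strand genes. Over all chromosomes the strands had medians of 0.051 and 0.045. Within 1 Mb, 3 of 5 plus-strand genes and 3 of 3 minus-strand genes lay below 0, with medians of -0.11 and -0.24. Without Gata6 and Gata6-AS these became 2 of 4 and 2 of 2, with medians of 0.029 and -0.12. The 2 minus-strand genes left were Rock1 (-0.24) and Esco1, which hardly differed (-0.0014).

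From 1 to 5 Mb, 6 of 10 plus-strand and 10 of 12 minus-strand genes lay below 0, and the medians were -0.10 and -0.084. From 5 to 20 Mb the plus-strand median was 0.040 over 17 genes and the minus-strand median -0.12 over 8. Over 20 Mb they were 0.023 over 114 genes and 0.0066 over 93. The plus-strand median was thus above the minus-strand median in 3 of the 4 ranges and below it from 1 to 5 Mb.

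**Figure D4:**
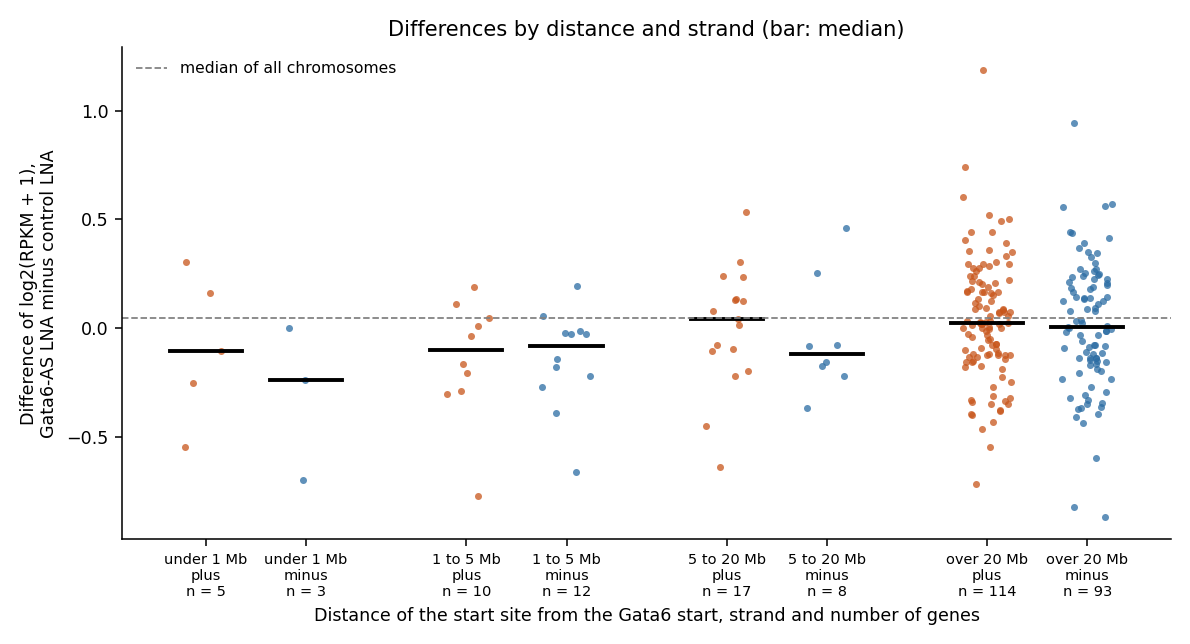
Difference of log2(RPKM + 1), Gata6-AS LNA minus control LNA (vertical axis), for each measured gene of chromosome 18 by distance range and strand, with the number of genes under each column; black bars are medians and the dashed line is the median of all chromosomes. The minus-strand median within 1 Mb, -0.24, rests on 3 genes, and both columns over 20 Mb spread far wider than the gaps between medians.

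By difference of log2(RPKM + 1), the lowest genes of the chromosome were 2 cytosolic aminoacyl-tRNA synthetase genes, which charge transfer RNAs for translation. Lars, the leucyl-tRNA synthetase gene at 31.4 Mb, stood at 64.5 and 34.9 RPKM (54.1%, 53.1% to 55.2%). Nars, the asparaginyl-tRNA synthetase gene at 53.6 Mb, stood at 109 and 61.0 RPKM (56.1%, 54.1% to 58.2%). Both had lower levels relative to control than Gata6. The histidyl-tRNA synthetase genes on the same chromosome, Hars and its mitochondrial neighbour Hars2, were at 22.8 and 27.6 RPKM and at 5.20 and 6.42 RPKM, each 0.26 above 0. Their spans overlap by 198 bp on opposite strands.

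The other low genes were of mixed function. Zbtb7c, a zinc finger gene of the BTB class, stood at 5.70 and 3.08 RPKM (54.1%, 50.9% to 57.4%), and Spry4, a feedback inhibitor of receptor tyrosine kinase signalling, at 3.29 and 1.83 RPKM (55.7%, 51.4% to 60.3%). Ube2d2, a ubiquitin-conjugating enzyme, stood at 54.5 and 37.1 RPKM (67.9%, 66.3% to 69.7%). Ndfip1, an adaptor of NEDD4 family ubiquitin ligases, stood at 44.7 and 32.1 RPKM (71.9%).

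At the other end, Gm5506 stood at 147 and 337 RPKM, or 229% of control (225% to 232%, difference 1.19). RefSeq names this gene model Eno1b, a copy of the glycolytic enolase gene Eno1 on chromosome 4, which stood at 67.9 and 155 RPKM (difference 1.18). The 2 annotated Eno1b transcripts matched an Eno1 transcript at 94.6% and 98.9% of bases. Reads of either gene could have been counted for the other, and no source used here says how reads that map to several places were treated, so the level of Gm5506 is uncertain. Without it, no measured chromosome 18 gene differed by 2-fold on the log2(RPKM + 1) scale.

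Lipg, the endothelial lipase gene, whose product cleaves lipoprotein phospholipids, followed at 6.76 and 13.9 RPKM (206%, 197% to 216%, difference 0.94). Tmco6 stood at 3.87 and 7.14 RPKM (184%, 169% to 201%). Its end overlaps that of Ndufa2, a respiratory complex I gene with a level of 93.0 and 92.1 RPKM, by 26 bp. Impa2, an inositol monophosphatase, stood at 6.69 and 10.7 RPKM (160%), and the sulfate transporter gene Slc26a2 at 6.82 and 10.6 RPKM (156%).

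Further high genes included Poli, a DNA polymerase of translesion synthesis (2.23 and 3.77 RPKM, 169%), and Stard4, a carrier of cholesterol between membranes (9.65 and 14.7 RPKM, 152%). The TFIIH helicase gene Ercc3 stood at 149% of control (129% to 173%), Wdr55 at 147% and the CXXC zinc finger gene Cxxc5 at 145%. None of these had a start site within 20 Mb of the Gata6 start, and neither did 207 of the 262 measured genes. Pik3c3 (153%, 19.4 Mb) and B4galt6 (144%, 9.85 Mb), also among the 12 highest differences, had theirs within it.

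**Figure D5:**
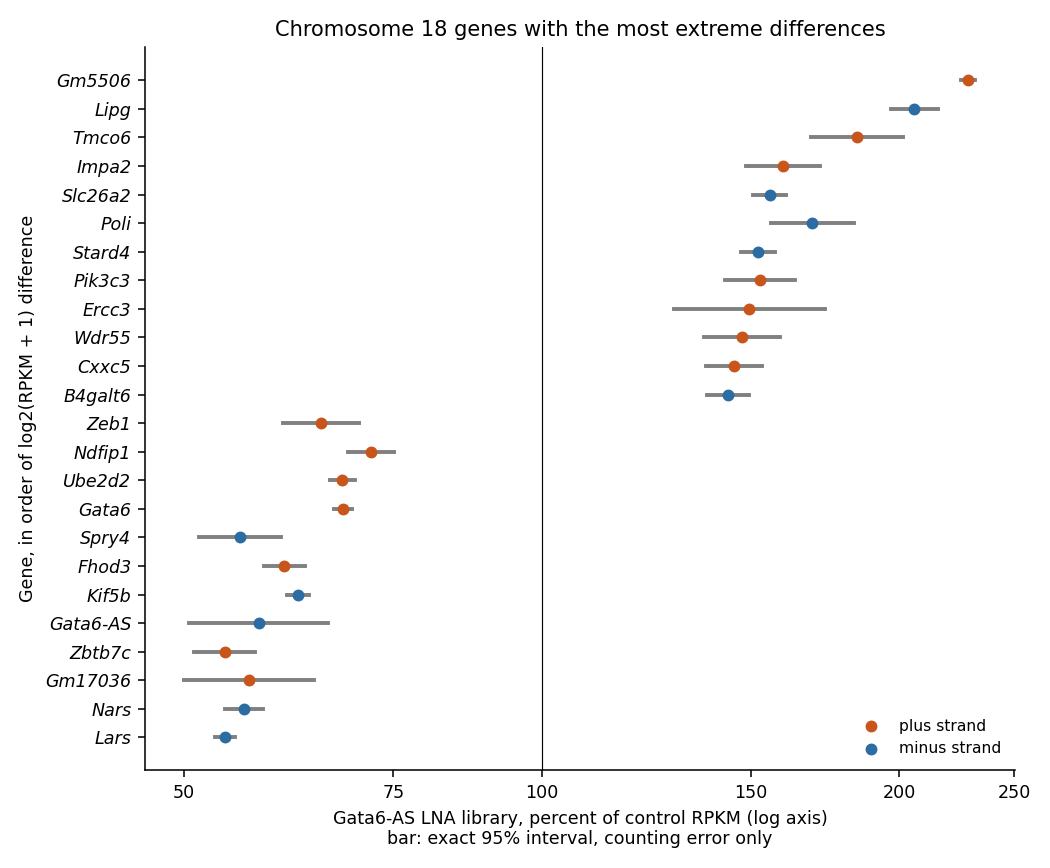
Level in the Gata6-AS LNA library as a percent of control RPKM (log axis) for the 12 lowest and 12 highest measured genes of chromosome 18 by difference, coloured by strand; bars are exact 95% intervals from the least numbers of reads and cover counting error only. Lars, Zbtb7c, Spry4, Nars and Gm17036 lie below Gata6-AS at 57.8%, and Gm5506 and Lipg lie above 200%.

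Grouped by function, the list named cell cycle and cell death had the highest median among 8 lists of chromosome 18 genes, 0.20. Of its 11 measured members 9 lay above 0, where 58.0% of all measured genes did. None differed by 1.5-fold on the log2(RPKM + 1) scale, and the cell death gene Pmaip1 was not measured. Measured members of this broadly drawn list included Poli (169% of control in RPKM), the mitotic kinesin gene Kif20a (30.4 and 39.3 RPKM, 129%), Psmg2, a proteasome assembly chaperone (125%), and the nuclear lamina gene Lmnb1 (56.5 and 66.9 RPKM). Genes of mitochondria, lipids and metabolism had a median of 0.16 with 14 of 23 members above 0, led by Lipg, Impa2 and Stard4. The measured members within 5 Mb of the Gata6 start, Npc1 and Osbpl1a, were among the 9 below 0. Abhd3, nearer at 0.346 Mb but not measured, went the other way (0.753 and 0.953 RPKM). The mitochondrial chaperone gene Hspa9 (93.7 and 75.6 RPKM) was below 0, while its nucleotide exchange partner Grpel2 was above (5.36 and 7.47 RPKM).

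Genes of RNA processing and translation had 13 of 20 members above 0 and a median of 0.047, near that of all genes. Of these, Nars, the decapping enzyme gene Dcp2 (74.6% of control) and the translation termination factor gene Etf1 (53.5 and 41.3 RPKM, 77.1%) differed most. Lars was not on this list, so neither the count nor the median includes it. Transcription and chromatin regulators had 15 of 25 below 0 and a median of -0.028, from Gata6 and Zeb1 at the low end to Cxxc5 at the high end. Growth factor and kinase signalling genes had 9 of 15 below 0 and a median of -0.087. Spry4, Diap1, a formin (8.76 and 11.4 RPKM, 130%), and Mcc (2.78 and 2.001 RPKM, 72.0%) differed most. The immediate early gene Egr1 stood at 35.2 and 32.1 RPKM (91.4%), and Apc, a scaffold of the beta-catenin destruction complex, at 3.72 and 3.49 RPKM (93.7%).

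Of the SMAD genes, which transduce or inhibit TGF-beta signals, Smad4 stood at 17.4 and 17.0 RPKM (97.6%, 94.5% to 101%), Smad2 at 16.004 and 16.4 RPKM, and the inhibitory Smad7 at 5.67 and 4.27 RPKM (75.4%, 71.3% to 79.8%). Nedd4l, a ubiquitin ligase, stood at 2.73 and 2.44 RPKM. The list had 4 measured members, 3 of them below 0. Among cadherin and junction genes, 6 of 17 were measured and split evenly. Ctnna1, which links cadherins to actin, stood at 96.9 and 77.3 RPKM (79.8%, 78.1% to 81.4%), while the polarity gene Pard6g was at 125% and Myo5b at 120%. The neuronal cadherin gene Cdh2 and most desmosomal cadherin genes were near or at 0. Of 24 clustered protocadherin rows in the table only that named Pcdhgc5 was measured, at 3.07 and 2.96 RPKM (96.3%), and 6 were at 0 in both libraries. The Pcdhgc5 row spans 168 kb and is the only gamma protocadherin row, so its level need not come from Pcdhgc5 alone.

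In the authors' deposited table of differing genes, which holds 2099 genes with a p-value of their own, 50 lay on chromosome 18, 16 higher and 34 lower with the Gata6-AS LNA. Of the 262 measured genes, 34 were listed there (12.98%, against 11.9% of all measured genes). They comprised 22 listed as lower and 12 as higher, where 5.71% and 6.23% of all measured genes were listed in these directions. The same deposited table lists 5 measured genes within 5 Mb of the Gata6 start, all as lower: Gata6-AS (log2 difference -0.89), Gata6 (-0.47), Kif5b (-0.63), Gm17036 (-0.94) and Osbpl1a (-0.53). They are 16.7% of the 30 measured genes there, against 11.9% of all measured genes. Without Gata6 and Gata6-AS, 3 of 28 were listed (10.7%), and Kif5b and Gm17036 overlap. The p-value of Gata6 in the authors' deposited table is 0.0746, the highest of the 50. All of these values rest on the same pair of libraries as the RPKM values, and the test behind the p-values is stated in no source used here.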

How the data were processed

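Both libraries were read from the authors' deposited table of RPKM values (per the file headers), with gene coordinates. TopHat and mm9 are named in the submitters' processing notes. No source used here gives the aligner version, counting tool, annotation, strand use or treatment of multiply mapped reads. Another table holds the authors' deposited log2 values, log2 differences and p-values. RefSeq (GRCm38.p6) and GENCODE M21 were used for names and for comparing transcripts only, and 533 of 580 rows matched a RefSeq name.

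From these, the difference of log2(RPKM + 1) was computed in Python 3.11.15 with pandas 2.3.3 for rows with a mean of at least 1 RPKM. The tables were joined on gene position and strand. No test was possible with 1 library per group. Depth came from rows under 3000 bp, where RPKM times length is a whole number of steps (829 of 2094 rows above 0 in the control, 886 of 2211 in the other). Read numbers are the smallest whole pair at one length up to 30000 bp, within a relative 3e-07 plus 0.0002 reads. The steps were tested on simulated data. The floor is 3 reads.

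The members, lists and rules were chosen with earlier results of these data known. Named were Gata6, Gata6-AS, all genes within 1 Mb, the 12 highest and 12 lowest differences, the 3 largest differences in each of 8 lists, and Ttr, Smad4, Apc, Rps14 and Egr1. Chosen after their values were seen were Rpl17, Hars, Hars2, Ndufa2, Eno1, Lmnb1, Hspa9, Grpel2, Smad2, Cdh2 and the genes named from 1 to 5 Mb. So were the pairs of neighbouring genes named as examples. Alternatives were other pseudocounts, filters, scalings, distances and size rules, and leaving out overlapping rows or the Gata6 pair. No sequences are printed.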

Additional observations from a re-analysis of the deposited data

How the results depend on the processing

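With 1 library per group, nothing could be left out in turn, and no sampling of cultures stands behind any value. No paired analysis was possible because each group has a single library. A median counted as moved when it left the 95% binomial rank interval of the main median. With the median of all genes set to 0, the chromosome's median became -0.045 and that of genes over 20 Mb away -0.026; with equal summed RPKM they were -0.018 and -0.0017, so neither sign is stable. The medians within 1 Mb and from 1 to 5 Mb were below 0 under every alternative listed in the methods, from -0.22 to -0.0025 and from -0.18 to -0.022. The value of -0.0025 came with no filter on low values, over 11 genes, and is that of the pseudogene Gm10349. Its smallest read numbers are 1 in each library, so that median cannot be told from 0. The median from 5 to 20 Mb turned to 0.014 at a mean of at least 5 RPKM. The plus-strand median turned to -0.027 and -0.0031 under both scalings, while the minus-strand median stayed below 0. The number of 2-fold genes, 1 with a pseudocount of 1, was 2 with a pseudocount of 0.1 (Gm5506 and Lipg), 12 at 1.5-fold and 0 without Gm5506. The last of these, the scaled levels below and the values of named genes under other settings were chosen after seeing the data. Gata6 stood at 65.8% of control with the median set to 0 and 66.7% with equal summed RPKM, and Gata6-AS at 55.9% and 56.7%. Of 47 measured genes named by the rule, the sign differed under a scaling for 1, Rps14.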

Other observations

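Chromosome 18 holds 19 pairs of measured genes that overlap on opposite strands. In 14 pairs both members lay on the same side of 0 (8 above, 6 below) and in 5 on opposite sides. Among pairs with long overlaps, Prrc1 and 4930511M06Rik (19265 bp) differed by -0.032 and 0.11, and Kif5b and Gm17036 (13412 bp) by -0.66 and -0.77. Phax and Aldh7a1 (10509 bp) differed by 0.068 and 0.35, and Ctif and Gm10532 (8162 bp) by 0.035 and 0.022. Beside Npc1 (-0.27), the overlapping Gm15956 was at -0.17 and 3110002H16Rik, which shares 305 bp with it, at 0.19. Of 9 pairs whose start sites lie within 1000 bp without overlap, 5 had the same sign and 4 opposite signs. With the same sign, Kif20a and Brd8 were at 0.36 and 0.18, and Ap3s1 and Atg12 at -0.35 and -0.14. With opposite signs, Elp2 and Slc39a6 were at 0.31 and -0.16, and Psmg2 and Cep76 at 0.30 and -0.15. Since no source used here states strand use in counting, overlapping pairs need not be separate measurements.

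In the authors' deposited table, 16 of the 50 chromosome 18 genes lay below a mean of 1 RPKM. Among them were the cyclic AMP-responsive regulator Crem (log2 difference -1.11), the homeobox gene Onecut2 (-1.45), the neuronal cadherin gene Cdh2 (-0.92) and the kinase gene Map3k8 (1.56). Each had a mean below the filter, though Crem stood at 1.24 RPKM with the control LNA and 0.629 RPKM with the Gata6-AS LNA. These genes were chosen after their values were seen.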
